A study of Rattus norvegicus with 18 samples.

Results

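Toll-like receptor 4, its partners and the inflammatory genes downstream of it were followed through the prefrontal cortex (PFC) of rat pups as 10 genes named by symbol: *Tlr4*, *Tlr2*, *Cd14*, *Ly96*, *Myd88*, *Nfkb1*, *Nfkbia*, *Tnf*, *Il1b* and *Ccl2*. Of these, 9 had a row among the 32623 genes listed and 7 had enough counts to be tested with the 15703 genes that passed the filter on low counts. *Il1b* and *Ccl2* were too weak to be tested in that way, and *Ly96* was not analysed here. The RNA came from 18 Sprague Dawley pups at P14, 6 per group. Dams of the control group (SAL) were gavaged with saline. Dams of the postnatal group (PNO) were given oxycodone (oxy), an opioid, at 15 mg/kg/day once the litter was born, so that the pups met the drug in the milk. Dams of the in utero group (IUO) were started at 10 mg/kg/day for 5 days, raised by 0.5 mg/kg/day for 10 days to 15 mg/kg/day and then mated, and stayed on the drug, which added exposure through the placenta. Which pups shared a dam or litter is not given in the sources used here, so that the p-values measure the spread between these pups.

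TLR4 is a receptor of the innate immune system that binds bacterial lipopolysaccharide with the help of CD14, which hands the ligand over, and MD-2, the product of *Ly96*. The receptor signals through the adaptor MyD88 to a kinase cascade that releases NF-κB from its inhibitor IκBα, the product of *Nfkbia*, and NF-κB then drives genes such as *Tnf*, *Il1b* and *Ccl2*, with *Nfkbia* itself as a feedback target. In the brain TLR4 and CD14 are known mainly from microglia, and opioids have been studied as ligands of the TLR4 complex.

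Totals of expected counts per pup, which set how precisely a weak gene is measured, lay between 18381819 and 26084780 with a median of 22726306. None of the 45 pairs of pups within a group had identical columns. Microglial RNA was present in all pups. Over 14 microglia markers, the summed TPM (a level scaled to gene length and to a fixed total) was 326 to 442.9 in SAL, 349.2 to 409.3 in PNO and 346.9 to 424.1 in IUO. Over the 13 of them tested, the median log2 fold change against SAL was 0.07 in PNO and 0.02 in IUO, and that of IUO against PNO was -0.03. The mean log2 CPM of these 13 per pup ran lower in IUO, from 3.85 to 4.14. It ran from 3.94 to 4.42 in SAL and from 4.01 to 4.33 in PNO. Unlike the medians, which stayed near 0, that mean can be moved by few markers. Its value without *Selplg* and *Tmem119*, given next, was not computed. In IUO 2 of the 13 had an unadjusted p under 0.05 against either other group, both lower. By edgeR's quasi-likelihood test *Selplg* had a log2 fold change of -1.19 against PNO (adjusted p = 0.0315) and -1.14 against SAL (adjusted p = 0.0997), and *Tmem119* had -1.32 (adjusted p = 0.0524) and -1.34 (adjusted p = 0.0997). The 7 neutrophil and monocyte markers of blood summed to between 2.66 and 7.45 TPM over all pups. Of these *Elane* was at 0 in every pup, whereas *Csf3r*, *S100a9*, *S100a8* and *Camp* were above 0 in every pup. The 2 red cell markers summed to 493.7 to 1628 TPM in SAL, 361.4 to 1908 in PNO and 759.9 to 5668 in IUO. Both were higher in IUO than in SAL at an unadjusted p under 0.05 (median log2 fold change 1.15) and neither after adjustment, and the median was 1.09 for IUO against PNO. Cortical neuron markers were present in all groups, while striatal, choroid plexus and myelin markers varied widely between pups. The median log2 fold change for IUO against PNO was 0.97 over the striatal and -1.26 over the choroid plexus markers. Against SAL these medians were 0.54 and -0.61 in IUO, and -0.38 and 0.61 in PNO. No striatal or choroid plexus marker had an unadjusted p under 0.05. All 6 myelin markers were lower in IUO than in PNO at an unadjusted p under 0.05, a p reached by 15.3% of all genes tested. None of them was after adjustment. The median log2 fold change of the myelin markers was -1.37, and against SAL it was 0.72 in PNO and -0.60 in IUO. The part of the red cell, striatal, choroid plexus and myelin markers in the results below was not tested. In bulk tissue, fewer cells of a type and less RNA per cell cannot be told apart.

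The promoters of 8 of the 10 genes were in a RefSeq set of 27457 windows of build GRCr8, each running from 250 bases before to 50 bases after a transcription start site. The κB consensus, the motif that NF-κB dimers recognise, was searched on both strands and found in 3 of the 8, those of *Tlr2*, *Nfkbia* and *Nfkb1*, and in 7.6% of all windows. TATAAA was found in 3 of the 8, *Il1b*, *Tnf* and *Nfkbia*, and in 14.3% of all windows. It lay 60 bases before the start site in *Il1b* and 46 before it in *Tnf*, but at base 18 of the transcript in *Nfkbia*. Stretches of 120 bases are shown for the genes with a κB match, because these are the places in the set where the factor and its own regulators carry its recognition letters. Each runs 5′ to 3′ on the minus strand from 100 bases before the start site to 20 after it, with the κB match in capitals.
Nfkbia, chr6:78597053-78597172: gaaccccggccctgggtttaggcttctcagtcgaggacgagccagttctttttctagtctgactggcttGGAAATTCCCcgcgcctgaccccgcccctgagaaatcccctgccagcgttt
Nfkb1, chr2:226805443-226805562: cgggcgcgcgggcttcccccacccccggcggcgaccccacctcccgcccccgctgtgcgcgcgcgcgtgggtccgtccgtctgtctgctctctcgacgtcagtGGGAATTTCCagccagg
Tlr2, chr2:171504538-171504657: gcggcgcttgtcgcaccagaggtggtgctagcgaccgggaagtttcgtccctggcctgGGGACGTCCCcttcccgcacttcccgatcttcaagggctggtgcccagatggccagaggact
The match begins 31 bases before the start site in *Nfkbia* and at base 4 of the transcript in *Nfkb1*. In *Tlr2* it begins 42 bases before the start, and a further match lies outside the stretch shown, 206 bases before it. A match of letters is a description of the window and shows no binding.

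The genes fell into tiers of abundance that held in all 3 groups. On the TPM scale, the NF-κB components were highest, with a mean over the 18 pups of 15.2 ± 1.64 (SD) for *Nfkbia* and 7.79 ± 0.837 for *Nfkb1*, which encodes the p105 precursor of the p50 subunit. The adaptor *Myd88* followed at 3.78 ± 0.53 and the lipopeptide receptor *Tlr2* at 2.99 ± 0.545. *Cd14* lay at 1.1 ± 0.251 TPM. Below it came *Ccl2*, a chemokine that draws monocytes, at 0.597 ± 0.274, *Tlr4* at 0.518 ± 0.253, the cytokine *Tnf* at 0.378 ± 0.197 and *Il1b*, which encodes the interleukin-1β precursor, at 0.183 ± 0.127. *Nfkbia* was thus above 77% of the genes listed and *Il1b* above 44.9%.

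The order from *Nfkbia* down to *Cd14* and then *Ccl2* was the same in each of the 18 pups, as the plot of TPM by gene shows. The lowest pup of *Nfkbia* (12.6 TPM) was above the highest of *Nfkb1* (9.37 TPM), and the lowest of *Nfkb1* (6.4 TPM) above the highest of *Myd88* (4.64 TPM), whereas the ranges of all lower neighbours overlapped. Among the 4 weakest genes the order was not stable. *Ccl2* exceeded *Tlr4* in 13 pups, *Tlr4* exceeded *Tnf* in 12, and *Tnf* exceeded *Il1b* in 13.

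**Figure D1:**
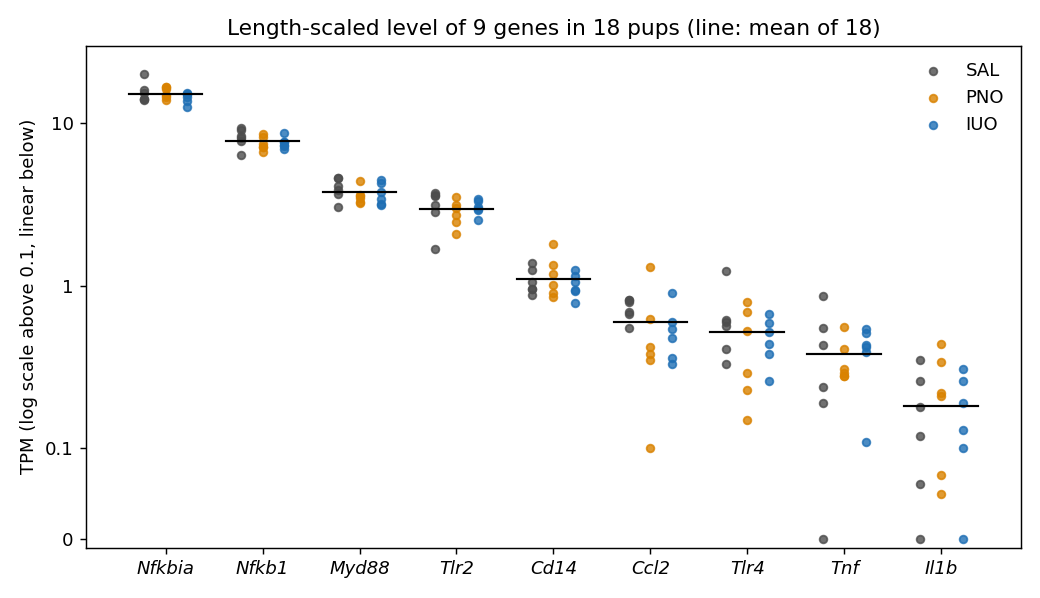
TPM of 9 genes in each of 18 pups, coloured by group (6 pups each), with a black line at the mean of all pups; the axis is logarithmic above 0.1 TPM and linear below. *Nfkbia* lies between 12.6 and 20.07 TPM with no overlap with *Nfkb1*, and the 3 groups intermingle for every gene.

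None of the 7 genes tested was called in any comparison, where a call by edgeR's quasi-likelihood test needs both a 1.5-fold change or more and an adjusted p under 0.05. Nor did any of them reach an unadjusted p under 0.05 in that test, and for none of the 9 genes did all pups of one group lie above all pups of another. The background differed between the comparisons. For PNO against SAL, 0% of all genes tested were called, 4.5% had an unadjusted p under 0.05 and 0.108% had groups that did not overlap. For IUO against SAL these shares were 0%, 6.88% and 0.745%, and for IUO against PNO 0.0446%, 15.3% and 1.65%. At such shares a count of 0 among 7 genes is near the background in every comparison. The median log2 fold change of the 7 genes against SAL was -0.03 in PNO and -0.10 in IUO, and between the exposed groups (IUO against PNO) it was -0.04, beside medians over all genes within 0.01 of 0. PNO and IUO were compared with the same SAL pups.

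The receptor itself was the most variable of the genes that could be tested, apart from *Tnf*. *Tlr4* ran from 0.813 to 2.14 CPM (counts rescaled to libraries of equal size, with TMM normalization) in SAL, with a median of 1.17. In PNO it ran from 0.369 to 1.55 (median 0.927) and in IUO from 0.536 to 1.26 (median 1.01). The highest pup of all was replicate 6 of SAL, with 52 counts, and the lowest replicate 2 of PNO, with 7, and the ranges of the 3 groups overlapped. The mean was 1.24 ± 0.485 CPM in SAL, 0.931 ± 0.467 in PNO and 0.961 ± 0.272 in IUO (SD, 6 pups each). Fitted log2 fold changes were -0.41 (SE 0.33, adjusted p = 0.912) for PNO against SAL and -0.36 (SE 0.33, adjusted p = 0.948) for IUO against SAL, and 0.04 (SE 0.33, adjusted p = 0.958) for IUO against PNO. Single pups moved these values, the first to between -0.60 (without replicate 5 of PNO) and -0.18 (without replicate 6 of SAL), and the second to between -0.46 (without replicate 5 of IUO) and -0.14 (without replicate 6 of SAL). In limma-voom weighted by sample quality, the second was -0.088 and the third 0.38. The 95% interval for PNO against SAL ran from 0.467-fold to 1.22-fold, so that a fall to 0.467 of the SAL level lay at the edge of what these counts allow.

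*Cd14*, the co-receptor, had between 17 and 34 counts in every pup. SAL pups ran from 0.922 to 1.54 CPM (median 1.01), PNO pups from 0.79 to 1.76 (median 1.26) and IUO pups from 0.836 to 1.31 (median 1.01). Its largest contrast was IUO against PNO, at a log2 fold change of -0.31 (SE 0.20, adjusted p = 0.492), and the 2 highest pups of all, replicates 4 and 5, were both of PNO. Against SAL the fitted values were 0.21 in PNO (SE 0.20, adjusted p = 0.912) and -0.10 in IUO (SE 0.20, adjusted p = 0.996). The first of these was 0.10 without replicate 5 of PNO, 0.33 without replicate 4 of SAL, 0.32 without replicate 1 of PNO and 0.36 in limma-voom weighted by sample quality. IUO against PNO became -0.20 without replicate 5 of PNO and -0.42 without replicate 1. Only the interval for IUO against SAL, from 0.695-fold to 1.26-fold, stayed inside a 1.5-fold change in either direction.

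*Tlr2*, which recognises bacterial lipopeptides and shares the MyD88 route with TLR4, was measured more tightly. Its level was 4.81 ± 0.914 CPM in SAL (3.21 to 5.67), 4.68 ± 0.615 in PNO (3.77 to 5.45) and 4.76 ± 0.375 in IUO (4.05 to 5.09). All 3 medians lay between 4.84 and 4.97 CPM, and the lowest pup of all, replicate 4, was of SAL. Against SAL, the fitted log2 fold change was -0.04 in PNO (adjusted p = 0.965) and -0.02 in IUO (adjusted p = 0.999), and IUO against PNO gave 0.02 (adjusted p = 0.945), each with an SE of 0.14. All 3 intervals excluded a 1.5-fold change, the widest bounds being 0.799-fold and 1.24-fold.

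*Myd88*, the adaptor, stood at 5.91 ± 0.557 CPM in SAL, 5.67 ± 0.378 in PNO and 5.5 ± 0.644 in IUO. Pups ran from 5.39 to 6.84 in SAL (median 5.71), from 5.11 to 6.22 in PNO (median 5.6) and from 4.87 to 6.51 in IUO (median 5.43). The ranges of the 3 groups overlapped. The fitted log2 fold change was -0.06 in PNO (adjusted p = 0.923) and -0.10 in IUO (adjusted p = 0.968) relative to SAL, and -0.04 between IUO and PNO (adjusted p = 0.86), with an SE of 0.10 throughout. The intervals reached no further than 0.805-fold and 1.125-fold.

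**Figure D2:**
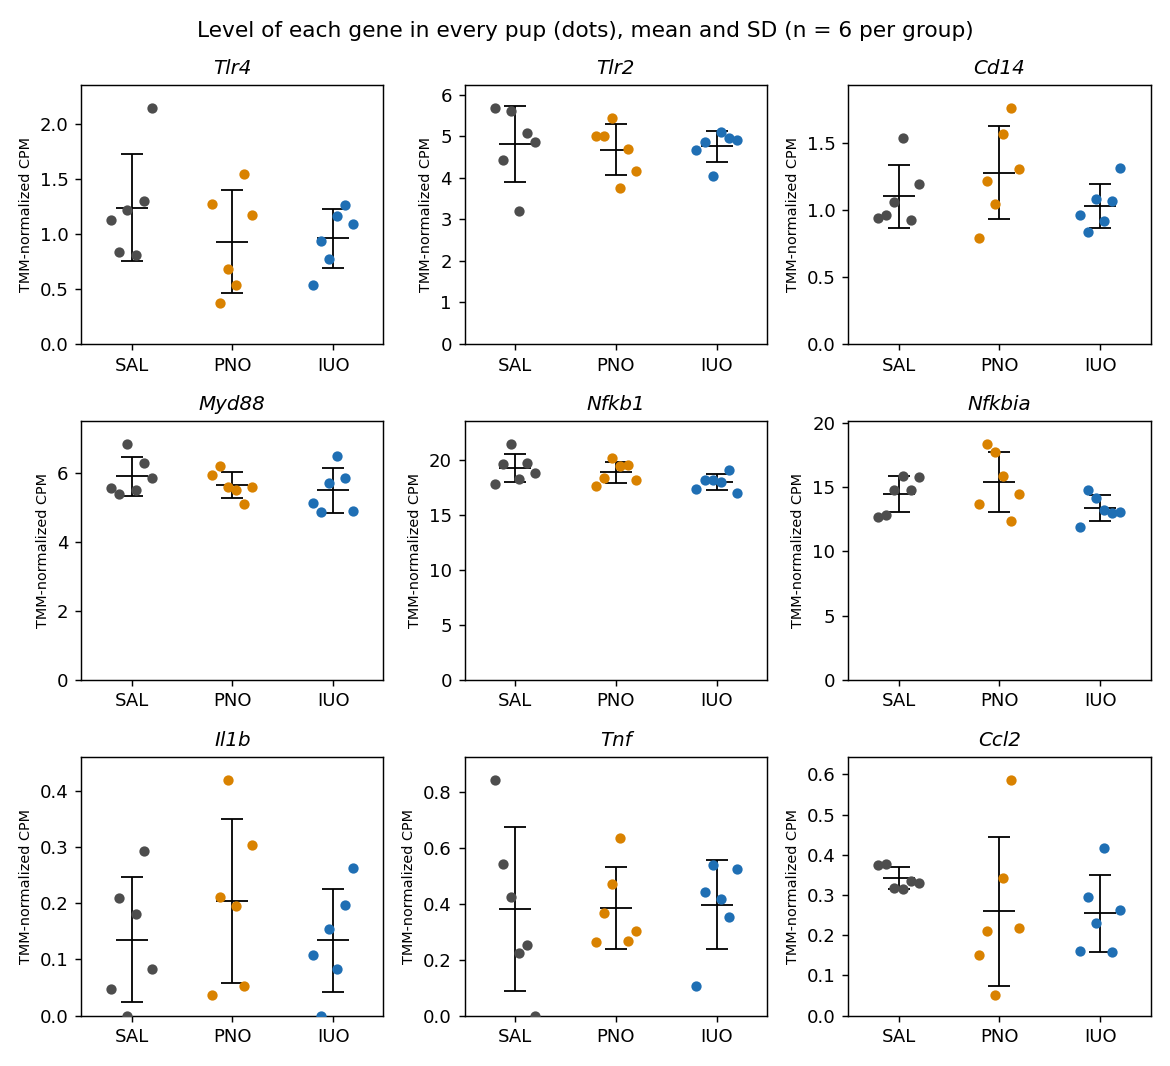
TMM-normalized CPM of 9 genes in each pup (dots, replicates 1 to 6 from left to right) with the mean and SD of each group (black, 6 pups each), every axis starting at 0. *Nfkb1* stays between 17 and 21.42 CPM, whereas *Tnf* and *Il1b* reach 0 in single pups and *Tlr4* has 1 SAL pup at 2.143 CPM.

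*Nfkb1*, the transcription factor subunit, had the smallest spread, with a coefficient of variation within groups of 5.49% against 4.95% from counting alone. The range was 17.8 to 21.4 CPM in SAL (median 19.2), 17.6 to 20.2 in PNO (median 18.9) and 17 to 19.1 in IUO (median 18.1). The group means were 19.3 ± 1.29, 18.9 ± 0.982 and 18 ± 0.726 CPM, and the ranges overlapped. For IUO against SAL the fitted log2 fold change was -0.10 (SE 0.06, unadjusted p = 0.123, adjusted p = 0.851). A two-sided exact permutation test of the same 12 CPM values, 1 of 27 such tests over the 9 genes, gave an unadjusted p of 0.0498. The fitted log2 fold change was -0.03 for PNO against SAL and -0.07 for IUO against PNO (adjusted p = 0.942 and 0.604), and no interval went below 0.852-fold or above 1.07-fold.

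*Nfkbia* gave the smallest unadjusted p of the 7 genes in the edgeR test. In IUO it lay between 11.9 and 14.8 CPM with a median of 13.2. In PNO it lay between 12.4 and 18.4 with a median of 15.2, and in SAL between 12.7 and 15.9 with a median of 14.8. The 3 highest pups were replicates 2, 3 and 4 of PNO, but replicate 5 of PNO was the lowest of its own group and below 5 of the 6 IUO pups. The log2 fold change of IUO against PNO was -0.21 (SE 0.10, unadjusted p = 0.0519, adjusted p = 0.331), with an interval from 0.749-fold to just above 1-fold. Without replicate 5 of PNO it was -0.27 and the unadjusted p was 0.0114, with an adjusted p of 0.163 by edgeR. Other fits made it smaller, to -0.13 with the microglia marker score as a covariate and -0.15 without replicate 2 of PNO. That score includes *Selplg* and *Tmem119* and ran lower in IUO, so that it is not separate from the group. Against SAL the values were 0.09 in PNO (SE 0.10, adjusted p = 0.914) and -0.11 in IUO (SE 0.10, adjusted p = 0.936), so that the estimates in the exposed groups had opposite signs. *Nfkbia* varied within groups by 11.6% beside 5.65% from counting.

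**Figure D3:**
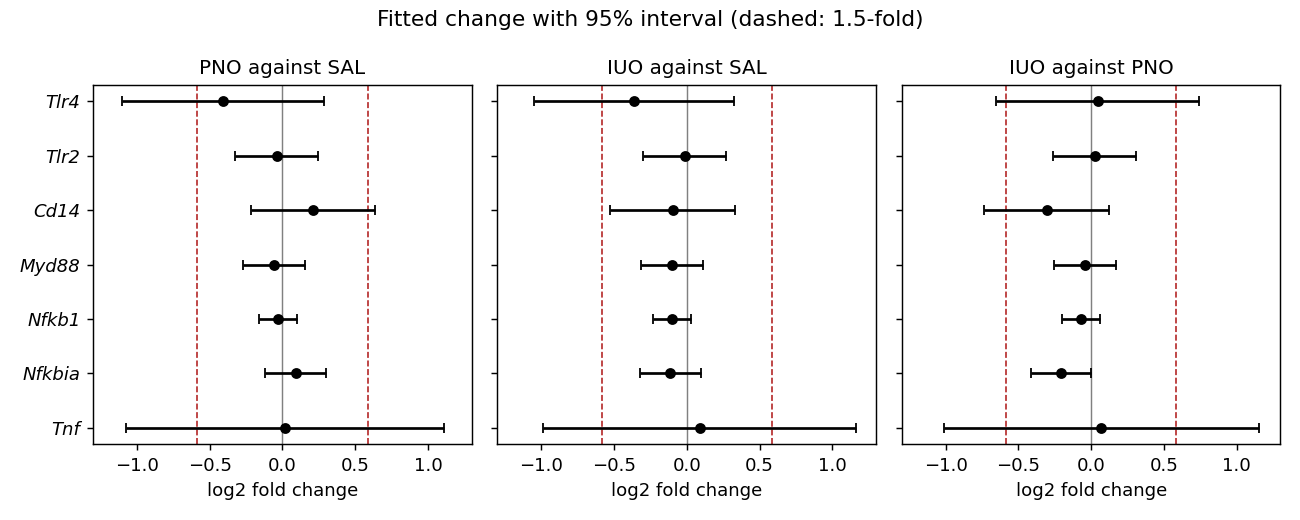
Fitted log2 fold change (dot) with its 95% interval (bar) for the 7 genes tested, in the 3 comparisons; dashed lines mark 1.5-fold in either direction. Intervals of *Tlr2*, *Myd88*, *Nfkb1* and *Nfkbia* lie inside the dashed lines in all 3 comparisons, whereas those of *Tlr4* and *Tnf* cross them in all 3 and those of *Cd14* in 2.

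The cytokines were close to the limit of detection, and their values are best read as counts. *Tnf* had 18, 13, 8, 5, 6 and 0 counts in SAL replicates 1 to 6, then 7, 7, 9, 13, 5 and 7 in PNO and 2, 9, 14, 10, 9 and 12 in IUO. SAL held both the highest and the lowest pup. Means were 0.381 ± 0.293 CPM in SAL, 0.385 ± 0.146 in PNO and 0.398 ± 0.158 in IUO. Relative to SAL the log2 fold change was 0.02 in PNO (SE 0.52, adjusted p = 0.995) and 0.09 in IUO (SE 0.51, adjusted p = 0.996), and IUO against PNO gave 0.07 (SE 0.51, adjusted p = 0.958). The intervals reached from 0.475-fold to 2.24-fold. A count of 0, as in replicate 6 of SAL, allows up to 3 counts, which is 0.124 CPM in that pup, and this limit covers counting error only. The coefficient of variation of *Tnf* within groups was 54%, beside 34.4% from counting alone.

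*Il1b* had 1, 5, 0, 4, 7 and 2 counts in SAL, 1, 4, 8, 4, 1 and 7 in PNO and 2, 0, 4, 2, 5 and 6 in IUO. It was thus at 0 in replicate 3 of SAL and replicate 2 of IUO, where up to 0.159 and 0.148 CPM would be allowed. Summed over each group, 19 counts were found in SAL, 25 in PNO and 19 in IUO. Mean levels were 0.135 ± 0.111, 0.203 ± 0.146 and 0.134 ± 0.0919 CPM, and the two-sided exact permutation p against SAL was 0.387 in PNO and 0.985 in IUO, and that between IUO and PNO was 0.357. These are unadjusted values among the 27 such tests, 6 of them on the 2 genes below the filter on low counts, and 0.00216 is the smallest that 6 against 6 pups can give.

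*Ccl2* had 8, 9, 6, 7, 8 and 8 counts in SAL, 4, 4, 1, 7, 11 and 5 in PNO and 3, 6, 6, 10, 4 and 6 in IUO. The SAL pups lay unusually close together, with a variance of the counts of 0.139 times their mean where counting alone gives about equal values, so that this group varied less than counting error alone would give. The means were 0.342 ± 0.0271 CPM in SAL, 0.26 ± 0.186 in PNO and 0.254 ± 0.0969 in IUO. In both exposed groups 1 pup was above all SAL pups, replicate 5 of PNO and replicate 4 of IUO. Relative to SAL, the two-sided exact permutation p was 0.31 for PNO and 0.0693 for IUO, and it was 0.968 between the exposed groups. Leaving out replicate 5 of PNO changed the first to an exact p of 0.0108, and leaving out replicate 4 of IUO changed the second to 0.00217. The latter is the smallest p the remaining pups can give, reached because SAL and IUO then no longer overlap. Each thus rests on 1 pup of a gene with at most 11 counts. In an edgeR fit without the filter on low counts, the log2 fold change of *Ccl2* was -0.41 (SE 0.39, adjusted p = 0.852) for PNO and -0.43 (SE 0.39, adjusted p = 0.835) for IUO against SAL.

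The rest of the pathway was followed through 6 lists that held 107 further genes, of which 103 were matched and 81 tested. None of the 81 had an adjusted p under 0.05 in any comparison. At an unadjusted p under 0.05, 1 was higher and 1 lower in PNO than in SAL (2.47% of the 81), 2 were higher and 2 lower in IUO than in SAL (4.94%), and 4 were higher and 5 lower in IUO than in PNO (11.1%). Over all genes tested these shares were the 4.5%, 6.88% and 15.3% given above. The counts changed when single pups were left out. With 1 pup left out they ran from 0 (without replicate 1 of SAL) to 5 (without replicate 4 of SAL) for PNO against SAL, where the counts over all genes in the same fits were 515 and 1291 in place of 706. For IUO against SAL they reached 7 without replicate 6 of SAL, with 1385 over all genes in place of 1081. With DESeq2 they were 2, 5 and 11, beside 796, 1191 and 2569 over all genes. In limma-voom weighted by sample quality, which changes both the tool and the weight of each pup, they were 3, 13 and 24, beside 1050, 2717 and 5333. The medians of single lists differed in sign, from -0.16 (other Toll-like receptors) to 0.10 (cytokines) for PNO against SAL and from -0.19 (cytokines) to 0.11 (cytokine receptors) for IUO against PNO.

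Among the 10 other Toll-like receptors matched, 4 were tested, *Tlr3* and *Tlr7*, which sense double-stranded and single-stranded RNA, and *Tlr6* and *Tlr13*. *Tlr6*, the partner of TLR2 for diacylated lipopeptides, stood at 2.43 ± 0.132 CPM in IUO and 1.76 ± 0.236 in PNO, with 2.12 ± 0.231 in SAL. Its log2 fold change for IUO against PNO was 0.46 (SE 0.13, adjusted p = 0.121). For *Tlr7* the values were -0.15 for IUO against PNO (adjusted p = 0.586) and -0.20 for IUO against SAL (adjusted p = 0.861). In PNO against SAL the smallest p-values were those of *Tlr6* at -0.25, *Tlr13* at -0.24 and *Tlr3* at -0.08, and in IUO against PNO *Tlr13* had 0.18.

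All 23 ligands, adaptors and kinases matched were tested. The kinases that bind MyD88 first, *Irak4* and *Irak1*, had estimates of opposite sign in IUO. *Irak4* was at 2.91 ± 0.309 CPM in IUO, 3.91 ± 0.542 in PNO and 3.76 ± 0.587 in SAL, a log2 fold change of -0.42 against PNO (adjusted p = 0.157) and -0.37 against SAL (adjusted p = 0.561). *Irak1* was at 146 ± 6.88 CPM in IUO, 133 ± 4.18 in PNO and 133 ± 5.01 in SAL, that is 0.13 against PNO (adjusted p = 0.193) and 0.14 against SAL (adjusted p = 0.53). *Tirap*, the adaptor that brings MyD88 to the membrane, had the smallest p-value of its list in PNO against SAL, with 0.51 ± 0.103 against 0.823 ± 0.264 CPM and a log2 fold change of -0.69 (SE 0.29, adjusted p = 0.912). The ubiquitin-conjugating enzyme *Ube2n* gave 0.06 and the kinase *Tbk1* -0.08 in the same comparison. *Ticam2*, the bridging adaptor of the TRIF route, gave 0.32 for IUO against SAL, and *Ube2n* -0.11 for IUO against PNO.

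Of 19 NF-κB and IRF factors, kinases and inhibitors, 18 were tested. *Nfkbie*, which encodes the inhibitor IκBε, lay at 10.8 ± 1.35 CPM in IUO, 8.46 ± 1.32 in PNO and 8.9 ± 1.3 in SAL. Its log2 fold change was 0.36 for IUO against PNO (SE 0.12, adjusted p = 0.182) and 0.28 for IUO against SAL (SE 0.12, adjusted p = 0.673), the other sign from that of *Nfkbia* in both comparisons. *Tnfaip3*, which encodes A20, a ubiquitin-editing brake on the pathway, had 0.61 for IUO against PNO (SE 0.32, adjusted p = 0.37) and *Irf1* had -0.22 (adjusted p = 0.451). For IUO against SAL, *Irf3* had -0.26 and *Relb* 0.19. In PNO against SAL the values nearest the threshold were 0.18 for *Irf1*, -0.08 for *Ikbkb* and -0.11 for *Chuk*, the kinases of the IKK complex.

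Among 21 cytokines and chemokines, 13 were below the filter on low counts, *Il6*, *Il1a*, *Il10*, *Cxcl10* and *Ccl3* among them. *Il33*, an alarmin of the interleukin-1 family, came nearest to the threshold of all 81 genes. It lay at 11.5 ± 0.646 CPM in IUO, 17.9 ± 2.79 in PNO and 14.8 ± 2.89 in SAL. The log2 fold change was -0.65 (SE 0.12, adjusted p = 0.0566) for IUO against PNO, -0.37 (SE 0.12, adjusted p = 0.507) for IUO against SAL and 0.28 (SE 0.12, adjusted p = 0.912) for PNO against SAL. *Il18*, an inflammasome product, followed with -0.51 (SE 0.18, adjusted p = 0.208) for IUO against PNO. The same contrast gave -0.22 for *Csf1* (adjusted p = 0.331), the growth factor of microglia. Against SAL, *Csf1* had -0.15 and *Il18* -0.26 in IUO, and *Cxcl12* had -0.24 and *Il18* 0.25 in PNO. *Il33* is expressed by oligodendrocytes and astrocytes. The median log2 fold change of the myelin markers had the same sign as that of *Il33* in each comparison. It was -1.37 for IUO against PNO, -0.60 for IUO against SAL and 0.72 for PNO against SAL. Of 6 astrocyte markers, 2 were lower for IUO against PNO at an unadjusted p under 0.05, a p reached by 15.3% of all genes tested. The median over the 6 was -0.03. The part of either cell type in the values of *Il33* was not tested.

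None of the 14 cytokine receptors and antagonists tested had an unadjusted p under 0.05 in any comparison. *Il1rn*, the interleukin-1 receptor antagonist, was at 1.48 ± 0.203 CPM in IUO, 2.06 ± 0.829 in PNO and 1.61 ± 0.441 in SAL, with log2 fold changes of -0.48 for IUO against PNO (adjusted p = 0.364), -0.13 for IUO against SAL and 0.35 for PNO against SAL. The TNF receptor *Tnfrsf1a* gave 0.10 for IUO against PNO and -0.10 for PNO against SAL, and *Tnfrsf1b* gave 0.23 for IUO against SAL. *Tgfbr1* had 0.20 for IUO against PNO and -0.25 for PNO against SAL.

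The 14 inflammasome and effector genes tested held 3 with an unadjusted p under 0.05, all in IUO against PNO. *Sele*, the endothelial adhesion molecule E-selectin, had 0.465 ± 0.117 CPM in PNO but 0.254 ± 0.0551 in IUO, giving a log2 fold change of -0.85 (SE 0.27, adjusted p = 0.163). *Nlrp3*, the inflammasome sensor, was at 3.77 ± 0.356 CPM in IUO, 2.81 ± 0.503 in PNO and 2.86 ± 0.87 in SAL, a log2 fold change of 0.42 (SE 0.20, adjusted p = 0.319) against PNO and 0.40 (SE 0.20, adjusted p = 0.748) against SAL. Against SAL, *Sele* had -0.48 in IUO. In PNO against SAL the leading values were 0.37 for *Sele*, 0.27 for *Pycard*, which encodes the inflammasome adaptor ASC, and -0.08 for *Stat3*.

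**Figure D4:**
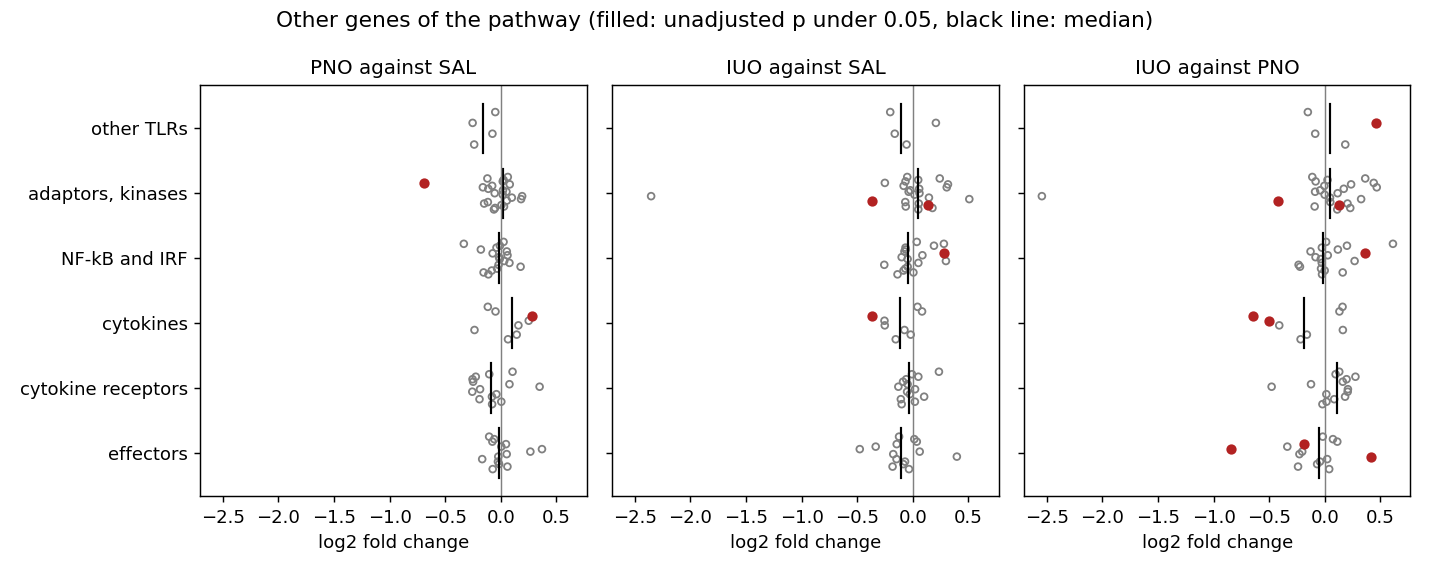
Log2 fold change of the 81 further pathway genes tested (circles) by list, in the 3 comparisons on one shared axis; filled red circles have an unadjusted p under 0.05 and black bars are list medians. Of the 81, the number filled is 2 in the left panel, 4 in the middle and 9 on the right, on both sides of 0, and none passed after adjustment; the circle far to the left is *Map3k7* (SE 1.78).

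Lastly, the genes whose log2 CPM followed each of the 7 most closely over the 18 pups were listed, with the group means removed. These coefficients describe 18 libraries that share a normalization, they are the highest of 15702 for each gene, and they carry no test. *Tlr4* had the closest companions, *Srgap1* (r = 0.929), *Gk5* (0.925), *LOC103692976* (0.924), *Uprt* (0.913) and *Lrrc58* (0.907), and none of these fell below 0.876 when any 1 pup was left out. *Tlr2* went with *Oscp1* (0.887), *Lingo3* (0.882), *Gnb5* (0.873), *Srf* (0.873) and *Cap1* (0.845), which dropped to between 0.78 and 0.841 without replicate 4 of SAL. *Nfkbia* went with *Alox5* (0.839), *Zfp1* (0.799), *Thoc5* (0.793), *Commd5* (0.768) and *Fam151b* (0.766). *Nfkb1* went with *Mgat4b* (0.825), *Pou3f3* (0.821), *Csrnp1* (0.809), *Man2a1* (0.803) and *Psd* (0.79). *Cd14* went with *Ubash3a* (0.821), *Vps9d1* (0.812), *Arf2* (0.809), *Chrna3* (0.806) and *Ptgis* (0.806), and *Myd88* with *Fga* (0.807), *Sync* (0.783), *Pappa2* (0.75), *Ube2q1* (0.738) and *Cpa3* (0.724). The companions of *Tnf*, *Ppcs* (0.829), *Slc22a17* (0.827), *AABR07012274.1* (0.808), *Trnp1* (0.798) and *Tmem248* (0.796), leaned most on 1 pup, with coefficients between 0.609 and 0.693 without replicate 6 of SAL. None of the 7 genes was among the companions of another, and the coefficients between any 2 of them ran from -0.575, for *Tlr2* and *Cd14*, to 0.328, for *Nfkb1* and *Myd88*.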

How the data were processed

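The PFC of 18 pups was sequenced from total RNA as single reads, with all libraries pooled on a single flow cell. The authors deposited 1 table per pup holding an expected count for each of 32623 genes, estimated and not normalized, and the TPM that the authors deposited beside it is scaled to gene length and to a fixed total. The aligner, quantifier and genome build are not given in the sources used here. Groups and replicate numbers came from the sample titles, and genes were matched by symbol.

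Rounded expected counts entered the quasi-likelihood test of edgeR 4.0.16 under R 4.3.3 (TMM, filterByExpr, glmQLFit and glmQLFTest in 1 model over 3 groups, two-sided), with Benjamini-Hochberg adjustment over 15703 genes. Log2 CPM used a prior count of 2, intervals are 95%, and TPM entered no test. The genes *Il1b* and *Ccl2*, below the filter, were compared by an exact permutation test of CPM. Alternatives were other size factors, total counts only, DESeq2 1.42.0, limma-voom with sample quality weights (limma 3.58.1), other filters, a replicate block, a microglia score as covariate, 12 pups only and each pup left out. The microglia score was the mean log2 CPM of 13 markers, *Selplg* and *Tmem119* among them, and ran lower in IUO. A fit with it is thus no clean adjustment for microglial content. Procedures were tested on simulated data. Plots used matplotlib 3.10.9 in Python 3.11.15. Named genes are the 10 members, the 3 of each list with the smallest p per comparison, and the 5 most alike. The blood markers and the cytokines below the filter on low counts were named outside this rule. The results of some genes that met this rule are not reported here. *Selplg* met the rule as a marker past the adjusted threshold, and *Tmem119* was named after its values were seen. The members and lists were chosen with earlier results of these data known.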

Additional observations from a re-analysis of the deposited data

Results flagged for a closer look

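*Tlr4* in replicate 6 of SAL stood apart from the other SAL pups. Its level of 2.14 CPM (52 counts) was followed by 1.3 CPM in replicate 5, and the gap between them was 0.634 of the range of the 6 pups, above the 95% critical value of Dixon's test for 6 values. Of the 27 sets of 6 pups examined (9 genes in 3 groups) 1 was singled out, where chance would single out about 1 in 20. The same pup had a count of 0 for *Tnf*.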

How the results depend on the processing

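None of the 7 members tested was called or reached an adjusted p under 0.05 in any of the 19 to 21 fits per gene and comparison, nor did *Il1b* and *Ccl2* in the 1 fit that held them, without the filter on low counts. Members with an unadjusted p under 0.05 rose from 0 to 1 for IUO against SAL with weighted limma-voom (*Nfkb1*), a setting that changes both the tool and, by sample quality weights, the weight of each pup. For IUO against PNO they rose from 0 to 1 with RLE size factors, DESeq2, the stricter filter on low counts and the replicate block (each *Nfkbia*), to 2 with weighted limma-voom (*Nfkbia* and *Cd14*), and ran from 0 to 2 with 1 pup left out: 2 without PNO replicate 1, 1 without PNO replicate 5 and 1 without IUO replicate 2. All genes called were 1 with DESeq2 for PNO against SAL, and 22 with DESeq2, 17 with weighted limma-voom and 0 to 1 with 1 pup left out for IUO against SAL (1 without SAL replicate 2). Against the 7 called for IUO against PNO there were 13 when scaled to total counts only, 172 with DESeq2, 703 with weighted limma-voom, 2 with the microglia covariate, 50 with 12 pups only, and 0 to 58 with 1 pup left out (58 without PNO replicate 5). Genes with an unadjusted p under 0.05 moved by over 1.5 times from 706 to 462 with 12 pups only and 398 to 1419 with 1 pup left out (PNO against SAL), from 1081 to 2717 with weighted limma-voom (IUO against SAL), and from 2400 to 5333 with weighted limma-voom and 1555 with the covariate (IUO against PNO).

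Estimates near 0 changed sign. Scaled to total counts only, *Tnf* was -0.042 on the log2 scale for PNO against SAL, and the differences in CPM were 0.00091 for *Il1b* (IUO against SAL) and 0.00014 for *Ccl2* (IUO against PNO). With the replicate block *Tlr2* was 0.0076 for IUO against SAL. With the microglia covariate, IUO against SAL gave 0.068 for *Tlr2* and -0.068 for *Tnf*, and IUO against PNO gave -0.12 for *Tlr4*, 0.031 for *Myd88* and -0.12 for *Tnf*. With weighted limma-voom, IUO against PNO gave 0.0396 for *Myd88* and -0.0401 for *Tnf*. With 1 pup left out, PNO against SAL ran from -0.13 to 0.016 for *Tlr2*, -0.26 to 0.41 for *Tnf* and -0.053 to 0.0024 for *Nfkb1*. IUO against SAL ran from -0.11 to 0.034 for *Tlr2*, -0.18 to 0.022 for *Cd14*, -0.19 to 0.47 for *Tnf* and, in CPM, -0.0283 to 0.0304 for *Il1b*. IUO against PNO ran from -0.11 to 0.23 for *Tlr4*, -0.031 to 0.072 for *Tlr2*, -0.036 to 0.27 for *Tnf* and, in CPM, -0.047 to 0.058 for *Ccl2*. The cause of these changes was not tested.

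The replicate numbers come from the titles alone. Same-numbered pups deviated together with a mean correlation of 0.232, -0.0265 and 0.0626 in the 3 comparisons, and in none were all 6 pairs over 0.1, so that they were not taken as pairs. The block changed no adjusted call of a member. The stricter filter left 14565 genes and removed *Tnf*. Counting alone gives *Tnf*, *Il1b* and *Ccl2*, with at most 18, 8 and 11 counts in a pup, a coefficient of variation of 34.4%, 53.8% and 40.2%, beside 54%, 75.1% and 42.7% within groups.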

Other observations

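*Map3k7*, which encodes TAK1, the kinase between the IRAK proteins and IKK, was listed at an expected count under 1 in 12 of the 18 pups and above 40 in the other 6. The 6 values were 42.85, 183.11 and 535.38 in SAL replicates 2, 3 and 6, 698.94 and 221.41 in PNO replicates 1 and 5, and 163.89 in IUO replicate 3. High and low pups occurred within each group, and the edgeR log2 fold changes of -2.35 (IUO relative to SAL) and -2.55 (IUO relative to PNO), with adjusted p = 0.902 and 0.511, had SEs of 1.78. Whether reads of a near-identical copy were shared out differently between pups was not tested, so that an expected count of 0 does not show that the mRNA was absent. The gene was singled out after its values were seen.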
